A study of Mus musculus with 11 samples.

Results

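Of the 38393 genes listed in the deposited tables, 10 that have been reported as targets of the microRNAs of the family of miR-204 and miR-211 were examined for a higher mRNA level in mice that lack miR-211. They were Meis1, Meis2, Snai2, Creb5, Tgfbr1, Tgfbr2, Ezr, Rab22a, Ap1s2 and Bcl2, chosen by name from earlier reports. The rule uses no value of these files, although earlier results of these data were known when the list was drawn up. Each symbol matched 1 Ensembl gene, and all 10 passed the filter on low values (CPM, the count scaled to library size, of at least 1 in 5 or more libraries), as 15767 genes did in all. The RNA came from mouse eyes without cornea and lens, and thus mainly from the neural retina and pigment epithelium with the choroid, ciliary body and sclera around them. There were 5 libraries from wild-type (WT) and 6 from miR-211-/- (KO) animals, all between 1 and 2 months old and of the C57BL/6 strain by the labels (C57Bl/6J by the study's methods). The KO allele is a constitutive deletion of pre-miR-211, so that every cell of the eye carries it, and no change of Mir204 is named for either group. By the study's methods, all KO animals were male and the WT animals were 2 males and 3 females. The labels give no sex, so that sex entered no fit and is partly mixed with genotype in the comparison of all libraries.

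MicroRNAs guide Argonaute to mRNAs, mostly through pairing of the seed at their 5′ end with sites in the 3′ UTR, and can lower the amount of the mRNA, its translation or both. RNA-seq reads only the first of these. The genes of both family members lie in introns of melastatin channel genes, Mir211 in Trpm1 and Mir204 in Trpm3, and both miRNAs are known from the neural retina and the retinal pigment epithelium. In the eye, the family is best known for acting on the homeobox factor Meis2 during lens and retina development and on TGF-beta receptors and Snai2 in the pigment epithelium.

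The mature sequences are shown because they make clear which sites the 2 miRNAs have in common. They are given from 5′ to 3′ as in RefSeq (GRCm38.p6), with the seed, bases 2 to 8, in capitals.
mmu-miR-211-5p: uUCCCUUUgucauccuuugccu
mmu-miR-204-5p: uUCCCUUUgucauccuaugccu
The sequence of miR-211-5p lies at chr7:64205831-64205852 and that of miR-204-5p at chr19:22750610-22750631, both on the plus strand. The 2 miRNAs were identical at 21 of 22 positions and had the same seed. The single difference was A17U, counted from the 5′ end, with the base of miR-204-5p first. A seed site for 1 of them is therefore a seed site for the other.

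The 3′ UTR of each target was searched on its transcribed strand for 3 forms of the site. These were AAAGGGAA, which pairs with bases 2 to 8 and has an A opposite base 1 (8-base site), and 2 parts of it that lie within it, AAAGGGA (bases 2 to 8) and AAGGGAA (bases 2 to 7 and the A). A site was counted under the longest form it matched. Of all 20412 protein-coding genes with an annotated 3′ UTR, 6.20% had an 8-base site in their longest 3′ UTR, 15.9% had a 7-base site only and 77.9% had none. In their longest 3′ UTR, 4 of the 10 targets had an 8-base site (Tgfbr2, Ezr, Bcl2 and Creb5, the last with 2). Another 4 had 7-base sites only (Meis1, Meis2, Rab22a and Ap1s2). The remaining 2, Tgfbr1 and Snai2, had none of these letters in any annotated 3′ UTR. Ap1s2 had 1 site in its longest 3′ UTR and 3 over all its annotated 3′ UTRs, and the form of the additional sites was not determined. For each of the 8 genes the 8-base site is shown, both for Creb5, or else the site for bases 2 to 8 or, in Meis2, its only site, since these are the sequences through which the family could pair with the mRNA. Each is preceded by its upstream bases, on the strand of the gene, with the matched bases in capitals.
Meis1, 3′ UTR: gtgtggcaatggaaAAAGGGAg
Meis2, 3′ UTR: catgcccaatagtatAAGGGAA
Creb5, 3′ UTR, nearer the stop codon: gaaaagaaaaatgaAAAGGGAA
Creb5, 3′ UTR, farther: ttgtatcagaagcaAAAGGGAA
Tgfbr2, 3′ UTR: tcactactctacatAAAGGGAA
Ezr, 3′ UTR: acattagttttaaaAAAGGGAA
Rab22a, 3′ UTR: ggactctggcgtgcAAAGGGAc
Ap1s2, 3′ UTR: gtgacacactggtgAAAGGGAg
Bcl2, 3′ UTR: agctatttactgccAAAGGGAA
In GRCm38 these windows lie at chr11:18883399-18883420 (minus strand) for Meis1, chr2:115864217-115864238 (minus) for Meis2, chr6:53696040-53696061 and chr6:53698363-53698384 (plus) for Creb5, and chr9:116087873-116087894 (minus) for Tgfbr2. The others lie at chr17:6738664-6738685 (minus) for Ezr, chr2:173701295-173701316 (plus) for Rab22a, chrX:163927705-163927726 (plus) for Ap1s2 and chr1:106543053-106543074 (minus) for Bcl2. A match of letters describes the sequence and does not show that the site is used in the eye.

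The number of read pairs assigned to genes ranged from 20282241 to 36317673 per library. The pigment epithelium was represented in every library, with Rpe65 at 90.4 to 157 CPM. Although lens and cornea had been removed, the corneal keratin Krt12 reached 3514 CPM and the lens crystallin Cryaa 38372 CPM, the latter in WT replicate 4. In the column names of the study's own table, 5 libraries carry a mouse number (WT replicates 1 and 2, KO replicates 1, 2 and 3) and 6 an age (WT replicates 3, 4 and 5, KO replicates 4, 5 and 6). They are called the mouse-number series and the age series below, and each holds both genotypes. The ages in these names, 1 or 2 months, entered no fit and were not compared between the genotypes. Xist was at 796 to 1636 CPM in 3 WT libraries and at 0.451 to 1.29 CPM in the other 8, which were 2 WT and 6 KO libraries. These are the same numbers as the 3 WT females, 2 WT males and 6 KO males of the study's methods.

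The deletion itself could not be checked in these counts, because Mir211 and Mir204 were at 0 in all 11 libraries, and fragments of the length sequenced here do not read mature miRNAs. The level of the host gene Trpm1 was 430.1 ± 67.2 CPM in WT (SD, n = 5) and 433 ± 19.1 CPM in KO (SD, n = 6), a log2 fold change (KO minus WT) of 0.01 ± 0.15 (SE). Trpm3, the host of Mir204, was at 157 ± 23.0 CPM in WT and 157 ± 20.9 CPM in KO.

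No difference between the genotypes passed the test for any of the 10 reported targets. With edgeR's likelihood-ratio test and Benjamini-Hochberg adjustment over all genes tested (threshold 0.1), 0 of 10 were called, and the adjusted p was 1.00 for each of them. The background was low, as only 1 of 15767 genes, Xist, was called (0.00634%). The study itself reports more genes past this threshold, nearly all of them lower in KO, and the reason for the different count was not tested. At an unadjusted p under 0.05, the count was also 0 of 10, against 330 genes of the whole table (2.09%). The fold change was above 0 for 6 of the 10 targets and for 51.1% of all genes, and the median was 0.011 for the targets and 0.003 for all genes. Among the 8 libraries with Xist under 10 CPM, 0 of the 10 targets were called by the same test and 3 had a fold change above 0, and the values of Ezr, Snai2 and Tgfbr1 turned to -0.35, -0.27 and -0.07. In no target did every KO library lie above every WT library, a pattern seen in 17 genes (0.108%), or below every WT library (12 genes, 0.0761%). DESeq2 and the quasi-likelihood test of edgeR called 0 of the 10 as well, and 0.0127% and 0.0% of all genes. Each of them gave 1 target, Meis1, an unadjusted p under 0.05 towards a higher level in KO (0.0381 by DESeq2 and 0.0409 by the quasi-likelihood test), as 1.01% and 0.951% of all genes had.

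**Figure D1:**
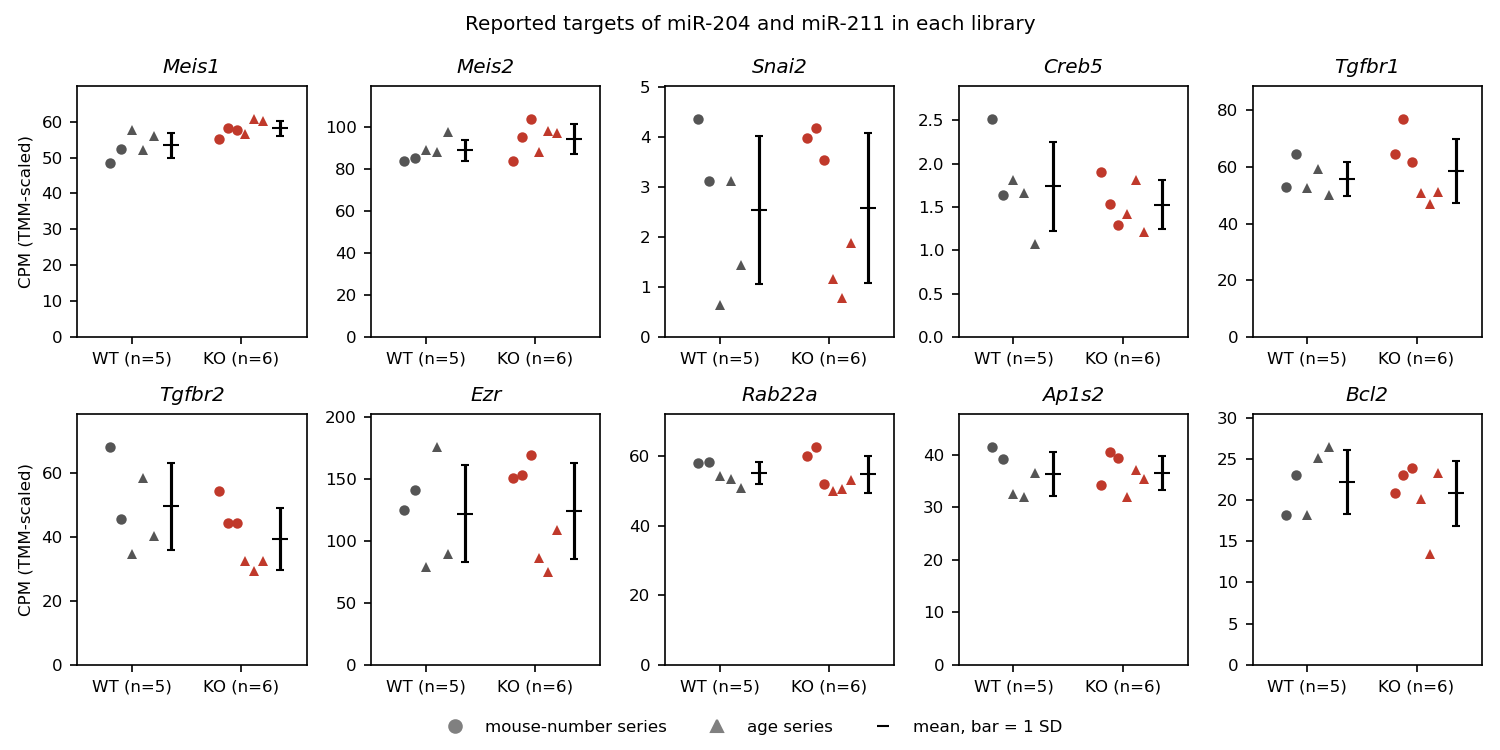
Level of each reported target in CPM (y axis, linear, from 0, scaled to TMM library sizes) in the 5 WT (grey) and 6 KO (red) libraries; circles are the mouse-number series, triangles the age series, and the bar is the mean ± SD. The genotypes overlap in every panel, and for Snai2 and Ezr the circles lie mostly above the triangles in both genotypes.

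Meis1 and Meis2 encode homeobox factors of the TALE class that act with Pbx proteins and, in the developing eye, upstream of Pax6. Meis1 was at 48.6, 52.3, 57.7, 52.2 and 56.0 CPM in WT replicates 1 to 5 and ranged from 55.3 to 60.8 CPM in KO, with a median of 58.0. In 4 of 6 KO libraries it lay above the highest WT library, and none lay below the lowest. The log2 fold change was 0.12 ± 0.09 (SE; 95% interval -0.04 to 0.29), which is a 1.09-fold level with an upper limit of 1.22-fold. The likelihood-ratio test gave an unadjusted p of 0.145, and the two-sided exact permutation test of genotype over the 11 libraries gave 0.026, before any adjustment for the number of genes. The fold change was above 0 in both series, at 0.18 in the mouse-number and 0.10 in the age series. Of the exonic bases of Meis1, 18.3% overlap other genes annotated in Gencode M21 (Gm16140 on the opposite and Gm37818 on the same strand). RSEM was run with its standard parameters, which do not use strand, so that strand did not separate reads of Meis1 and Gm16140. What part the overlap had in the level of Meis1 was not tested.

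Meis2 was at 84.1, 85.5, 89.2, 88.1 and 97.5 CPM in WT replicates 1 to 5 and at 83.8 to 104 CPM in KO (median 96.3). The groups overlapped along most of their range, since the lowest of all 11 libraries was KO replicate 1 and only 2 KO libraries exceeded the highest WT library. The log2 fold change was 0.09 ± 0.09 (95% interval -0.10 to 0.27, up to 1.21-fold; exact permutation p = 0.199), and it was 0.15 in the mouse-number and 0.05 in the age series. Meis1 and Meis2 were the only 2 targets whose fold change was above 0 under all 26 other settings of the analysis.

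Snai2 (Slug) is a zinc-finger repressor of epithelial genes such as E-cadherin. It was at 4.36, 3.12, 0.648, 3.11 and 1.45 CPM in WT replicates 1 to 5 and at 0.786 to 4.18 CPM in KO (median 2.70). It varied between libraries of 1 genotype more than any other target, with a coefficient of variation of 58.3% in WT and 57.7% in KO. The means were 2.54 ± 1.48 and 2.58 ± 1.49 CPM, and the log2 fold change was 0.03 ± 0.53, with an interval of -1.01 to 1.06 that reaches a 2.08-fold level. A 2.08-fold level of Snai2 thus lies within the error of these libraries. Within the series the fold change was 0.06 (mouse-number) and -0.43 (age).

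Creb5 encodes a CREB-type bZIP activator that binds cAMP response elements. It was the target with the lowest expression and was counted with only 26 to 71 read pairs per library. It was at 2.52, 1.64, 1.81, 1.66 and 1.08 CPM in WT replicates 1 to 5 and at 1.21 to 1.91 CPM in KO (median 1.48). All KO libraries lay within the range of WT. Its log2 fold change was -0.20 ± 0.24 (95% interval -0.68 to 0.28, up to 1.22-fold), and it was -0.41 in the mouse-number and -0.03 in the age series. It rested largely on WT replicate 1, without which it was -0.02.

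Tgfbr1 and Tgfbr2 encode the type I and type II receptors for TGF-beta, where the type II receptor binds the ligand and phosphorylates the type I receptor, which passes the signal to Smad2 and Smad3. Tgfbr1 was at 52.9, 64.4, 52.5, 59.3 and 50.0 CPM in WT replicates 1 to 5 and at 46.8 to 77.0 CPM in KO (median 56.5). Both the highest and the lowest of the 11 libraries were KO. The log2 fold change was 0.07 ± 0.14 (95% interval -0.21 to 0.36, up to 1.28-fold), and it was 0.21 in the mouse-number and -0.11 in the age series.

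Tgfbr2, which has an 8-base site, had the largest difference of the 10 over all 11 libraries, and it was towards a lower level in KO. It was at 68.2, 45.7, 34.7, 58.5 and 40.2 CPM in WT replicates 1 to 5 and at 29.2 to 54.3 CPM in KO (median 38.3). No KO library reached the highest 2 WT libraries, and 3 lay below the lowest. The log2 fold change was -0.33 ± 0.21 (95% interval -0.75 to 0.09; unadjusted p = 0.126, exact permutation p = 0.177), or 0.797-fold, with limits of 0.595 and 1.07. It was -0.26 within the mouse-number and -0.50 within the age series, and leaving out 1 library moved it between -0.44 and -0.18. The value of -0.18 was that without WT replicate 1 (unadjusted p = 0.381), where Snai2, at 0.31, had the larger difference. With the series as a covariate it was -0.40, at an unadjusted p of 0.0117 in a fit where 6.57% of all genes had a p under 0.05, and the adjusted p of edgeR's likelihood-ratio test was 0.548.

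Ezr encodes ezrin, which links actin to the plasma membrane and forms the apical microvilli of the pigment epithelium. It was at 125, 141, 79.3, 176 and 89.6 CPM in WT replicates 1 to 5 and at 75.2 to 169 CPM in KO (median 129.7). Both genotypes had libraries below 90 and above 140 CPM. The means were 122 ± 39.4 CPM in WT (SD, n = 5) and 124 ± 39.0 CPM in KO (SD, n = 6). The log2 fold change was 0.02 ± 0.27 (95% interval -0.50 to 0.54, up to 1.45-fold). Its sign differed between the series, 0.24 in the mouse-number and -0.34 in the age series, but the interaction of genotype and series was not past the threshold (difference 0.60, unadjusted p = 0.157, adjusted p = 1.00 by edgeR's likelihood-ratio test). For all 10 targets together, the interaction had an unadjusted p under 0.05 in 0 of 10, against 2.71% of all genes.

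Rab22a encodes a small GTPase of early endosomes, and Ap1s2 a small subunit of the AP-1 clathrin adaptor, which sorts cargo between the trans-Golgi network and endosomes. Their levels varied little between libraries, with coefficients of variation of 5.76% (WT) and 9.84% (KO) for Rab22a and 11.5% and 8.84% for Ap1s2. Rab22a was at 58.1, 58.2, 54.3, 53.3 and 50.9 CPM in WT replicates 1 to 5 and at 49.8 to 62.7 CPM in KO (median 52.4), with a log2 fold change of -0.01 ± 0.10 (95% interval -0.20 to 0.19, up to 1.14-fold). KO libraries lay both above and below the whole range of WT, 2 on each side. Ap1s2, an X-linked gene, was at 41.6, 39.2, 32.6, 31.9 and 36.5 CPM in WT replicates 1 to 5 and at 32.0 to 40.5 CPM in KO (median 36.3). Its KO libraries lay inside the WT range, and the log2 fold change was 0.00 ± 0.11 (95% interval -0.22 to 0.22, up to 1.17-fold). Within the mouse-number and age series the values were 0.00 and -0.04 for Rab22a and -0.09 and 0.06 for Ap1s2.

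Bcl2, the inhibitor of mitochondrial apoptosis that gave its family its name, was at 18.2, 23.1, 18.2, 25.1 and 26.5 CPM in WT replicates 1 to 5. In KO it ranged from 13.4 to 23.9 CPM with a median of 22.0, and the lowest value, in KO replicate 5, stood apart from the other 5, which were at 20.1 to 23.9 CPM. The log2 fold change was -0.10 ± 0.17 (95% interval -0.44 to 0.25, up to 1.19-fold), at 0.13 in the mouse-number and -0.29 in the age series. Another annotated gene on the opposite strand, D630008O14Rik, overlaps 6.09% of the exonic bases of Bcl2.

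**Figure D2:**
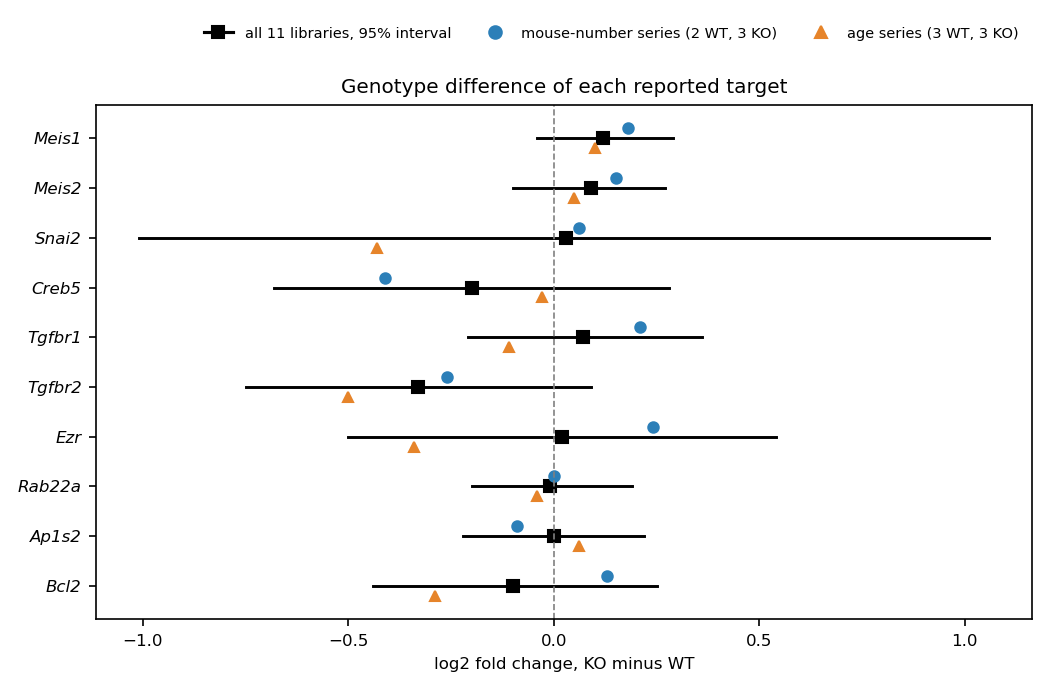
Log2 fold change (KO minus WT, x axis) of each reported target over all 11 libraries (black square with its 95% interval) and within the mouse-number series (blue circle) and the age series (orange triangle). Every interval includes 0, from -0.04 to 0.29 for Meis1 and from -1.01 to 1.06 for Snai2, and only Meis1, Meis2, Tgfbr2 and Creb5 have the same sign in all 3.

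On the length-corrected FPKM scale the targets differed widely in level. Ezr was the highest at a mean of 39.4 FPKM over the 11 libraries (25.3 to 54.4), followed by Meis2 at 31.1 (26.4 to 34.6), Meis1 at 20.3 (17.2 to 24.0) and Ap1s2 at 15.7 (11.7 to 18.3). The TGF-beta receptors were at 10.5 (Tgfbr1) and 9.30 FPKM (Tgfbr2), Rab22a was at 7.92, Bcl2 at 2.99, Snai2 at 1.28 and Creb5 at 0.543. In this order the ranges of neighbours overlapped, except between Meis2 and Meis1 and between Rab22a and Bcl2.

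More of the targets passed the test between the library series than between the genotypes. In a model with series and genotype as terms, 6 of the 10 were higher in the mouse-number series at an adjusted p under 0.1 (edgeR's likelihood-ratio test) and 0 were lower, beside 21.7% and 14.6% of all genes. The largest difference was that of Snai2, with a log2 difference of 1.39 (3.83 ± 0.505 against 1.50 ± 0.903 CPM, edgeR adjusted p = 0.00119). It was 0.55 for Ezr, 0.50 for Tgfbr2 and 0.31 for Tgfbr1 (edgeR adjusted p = 0.0476, 0.00949 and 0.0214), and 0.19 for Ap1s2 and 0.17 for Rab22a (0.0896 and 0.0837). Meis1, Meis2, Bcl2 and Creb5 were not past the threshold, with log2 differences of -0.09, -0.05, 0.07 and 0.26.

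The 6 libraries with the highest Ezr level were the same 6 for Snai2, Tgfbr1 and Tgfbr2, by a cut that was not planned. For Tgfbr1 the split was narrow, with 52.9 CPM as the lowest value among the 6 and 52.5 CPM as the highest among the rest. The 6 were the 5 libraries of the mouse-number series and WT replicate 4 of the age series. These were also the 6 libraries with the highest summed levels of the 7 markers of cornea and conjunctiva (3307 to 8944 CPM, against 1204 to 2439.8 CPM in the other 5), of the 6 markers of fibroblasts and sclera (1720.1 to 3711, against 738 to 1343 CPM) and of the 8 markers of adipocytes (76.6 to 567, against 22.9 to 75.9 CPM). The 8 skeletal muscle markers shared 5 of these 6 libraries, as did the lens list. The endothelial and the microglia and macrophage lists shared 4 each, and the blood list 3. Of the remaining lists, rods, ON bipolar cells, Müller glia and ganglion cells shared 1 each, and cones and pigment epithelium 2 each. No marker of these lists was at 0 in all libraries. What part the non-retinal tissue had in the levels of these 4 targets was not tested, and in bulk eye tissue fewer cells of a type and less RNA per cell cannot be told apart. None of the 6 fibroblast markers, the 7 tested adipocyte markers and the 8 muscle markers had a fold change above 0, and the summed level of the fibroblast list was 1297 to 3711 CPM in WT and 738 to 2721 CPM in KO. The lower KO values of Tgfbr2 thus stood beside lower values of the fibroblast, adipocyte and muscle lists. The cornea and conjunctiva list did not go that way, as 4 of its 7 markers had a fold change above 0. Its median summed level was 3307 CPM in WT and 4947 CPM in KO. The part of these 4 lists in the difference of Tgfbr2 was not tested. WT replicate 1, the library with the lowest Meis1 level, also had the lowest summed level of ganglion cell markers (183 CPM, against 540 to 781 in the other libraries). Its summed levels of rod markers (26985 CPM) and ON bipolar markers (1007 CPM) were the lowest as well. Between the genotypes, 6 of 6 ganglion cell markers had a fold change above 0, with summed levels of 183 to 719 CPM in WT and 540 to 781 CPM in KO. A fold change above 0 was also found for 7 of 8 rod, 4 of 6 ON bipolar, 4 of 8 cone and 2 of 6 Müller glia markers. The part of these retinal lists in the difference of Meis1 was not tested. Without WT replicate 1 the log2 fold change of Meis1 was 0.09.

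**Figure D3:**
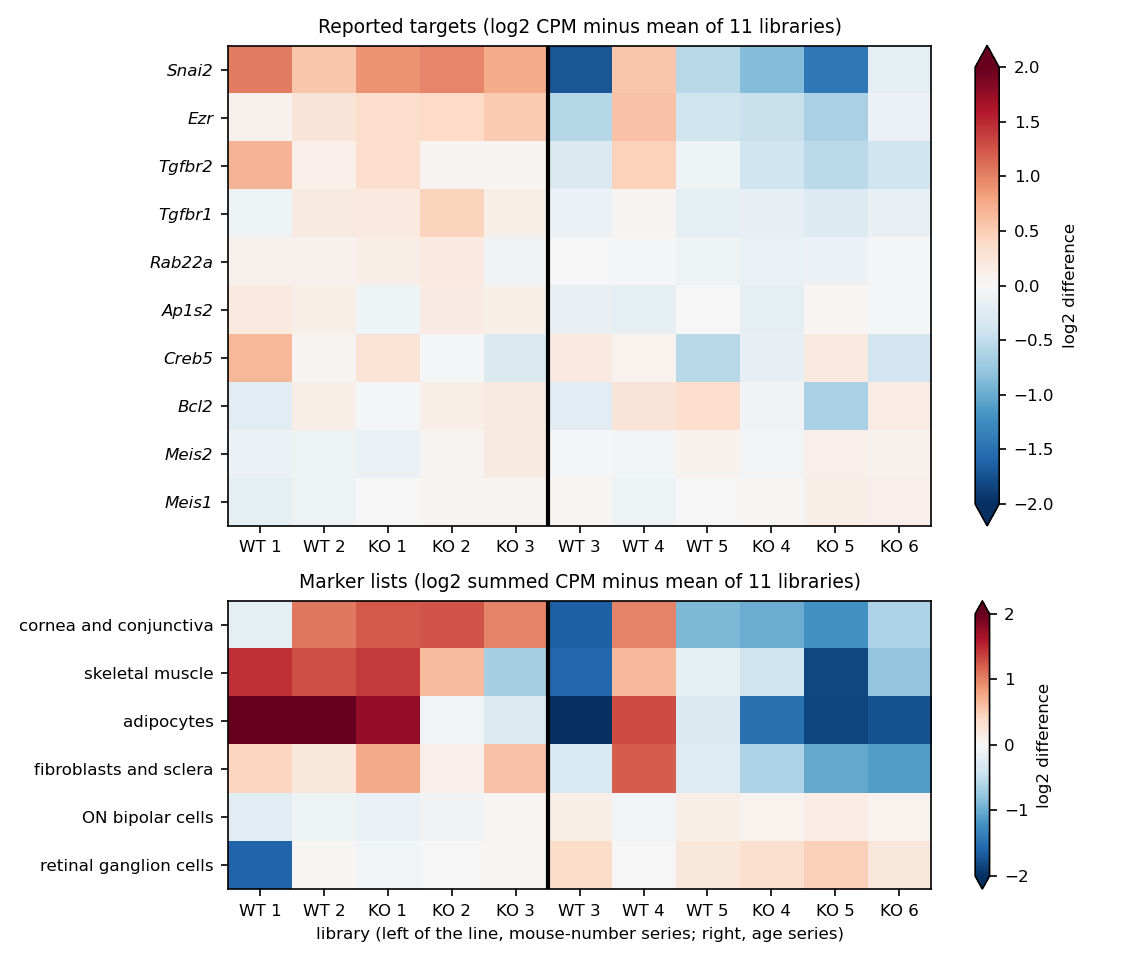
Reported targets (upper panel, log2 CPM minus the mean of the 11 libraries) and summed marker lists (lower panel, same scale) by library, with the mouse-number series left of the line and the age series right of it; colours end at 2 and -2. Snai2, Ezr, Tgfbr2 and Tgfbr1 are red mainly in the mouse-number series and in WT replicate 4, as are the cornea, fibroblast and adipocyte lists. Some cells there are not red, as WT replicate 1 lies below the mean for Tgfbr1 (52.9 CPM) and the cornea list (3307 CPM). Tgfbr1 in WT replicate 4 (59.3 CPM) is near 0, and Meis1 and Meis2 stay near 0.

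Other genes of the pathways in which the targets work were followed through 8 lists. Outside the 10 targets the lists held 87 tested genes, of which 0 were called by edgeR's likelihood-ratio test, 0 had an unadjusted p under 0.05 towards a higher level in KO (0.323% of all genes) and 9 towards a lower level (1.77% of all genes). The fold change was above 0 for 37 of the 87, and the median was -0.032, beside 0.003 for all genes.

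Among the TALE homeobox factors and Pax6, 7 of the 10 other genes had a fold change above 0, and the median was 0.039. The gene with the smallest p there was Tgif1, a TALE repressor (-0.19, unadjusted p = 0.529). Of the 23 other genes of the TGF-beta pathway, 16 had a fold change below 0, and 5 of these had an unadjusted p under 0.05. They included Eng, the co-receptor endoglin, at 34.9 to 45.7 CPM in WT and 27.0 to 35.4 CPM in KO (-0.36 ± 0.11, unadjusted p = 0.00173). Ccn2, the matricellular target gene CTGF, had a log2 fold change of -0.58 ± 0.19 (unadjusted p = 0.00248), and Ltbp4, which holds latent TGF-beta in the matrix, one of -0.46 ± 0.17 (unadjusted p = 0.00678). The adjusted p of edgeR's likelihood-ratio test was 1.00 for all 3.

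Of the 9 other tested factors and markers of epithelial-mesenchymal transition, 6 had a fold change below 0. Snai1, which encodes the Snail repressor related to Slug, was at 1.80 to 2.16 CPM in WT and 0.907 to 1.61 CPM in KO, so that its groups did not overlap. Its log2 fold change was -0.64 ± 0.20 (edgeR unadjusted p = 0.00156, adjusted p = 1.00), and the exact permutation p of 0.00216 is the smallest that 5 against 6 libraries allow. It lay close to the expression limit of 1 CPM. Fn1, fibronectin, had a log2 fold change of -0.48 ± 0.22 (unadjusted p = 0.0313). Beside the fibroblast, adipocyte and muscle lists given above, 0 of 6 microglia and macrophage markers, 0 of 5 blood markers, 0 of 7 tested lens markers and 1 of 6 endothelial markers had a fold change above 0. The summed endothelial level was 208 to 328 CPM in WT (median 227) and 196 to 293 CPM in KO (median 242). Kdr made up most of that sum, with a median of 131 CPM over all libraries, beside 14.7 to 24.8 CPM for the other endothelial markers. The summed lens level had a median of 181 CPM in WT and 187 CPM in KO, with WT replicate 4 at 88295 CPM. The part of these lists in the values of the TGF-beta and transition genes was not tested.

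In the remaining lists, 2 genes had an unadjusted p under 0.05. Of the 7 other genes of the ezrin-radixin-moesin group, 2 were above 0, and moesin, Msn, had a log2 fold change of -0.30 ± 0.15 (unadjusted p = 0.0497). The 9 other early endosomal Rab genes and effectors had a median of 0.003, and Rab31, the close relative of Rab22a, a value of -0.23 (unadjusted p = 0.0765). For the 7 other AP-1 subunits the median was 0.025, with Ap1s3 at 0.15 (unadjusted p = 0.401). Of the 14 other genes of the Bcl2 family, 5 were above 0, and the pro-apoptotic gene Pmaip1 (Noxa) had a log2 fold change of -0.81 ± 0.36 at a low level of 0.518 to 2.98 CPM (unadjusted p = 0.0234). Among the 8 other tested CREB and ATF factors, 4 were above 0, and Creb3l1 had the smallest p (-0.27, unadjusted p = 0.223).

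The seed sites were then followed through the whole table. Of the 14496 tested genes with an annotated 3′ UTR, 1032 had an 8-base site, and the fold change of 60.6% of these was above 0 (median 0.031). It was 56.6% for the 2551 genes with 7-base sites only (median 0.018) and 48.0% for the 10913 genes with none (median -0.005). At an unadjusted p under 0.05, 4 genes with an 8-base site were higher in KO and 15 lower, and 0 were called. The whole table was skewed the same way, with 51 genes higher and 279 lower. The classes differed in 3′ UTR length, with medians of 2718, 2287 and 921 bases, and the fold change moved with that length among genes without a site too. Below 500 bases the median was -0.025 with an 8-base site and -0.041 without, and from 500 to below 1500 bases -0.019 and -0.006. From 1500 to below 3000 bases it was 0.031 and 0.015, and from 3000 bases on 0.052 and 0.040. Within a length class, the 2 medians thus lay 0.016 apart or less, with the 8-base genes lower in the class from 500 to below 1500 bases. From the shortest to the longest class, 35.7%, 43.1%, 61.8% and 68.6% of the 8-base genes were above 0 (42, 174, 361 and 455 genes). Without a site the shares were 37.8%, 47.3%, 56.6% and 64.5%. What part the length had in the difference between the site classes was not tested. By the longest 3′ UTR, the 4 targets with an 8-base site were at -0.33 (Tgfbr2), -0.20 (Creb5), -0.10 (Bcl2) and 0.02 (Ezr). The 4 with 7-base sites only were at -0.01 (Rab22a), 0.00 (Ap1s2), 0.09 (Meis2) and 0.12 (Meis1). The 2 without a site were at 0.03 (Snai2) and 0.07 (Tgfbr1).

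**Figure D4:**
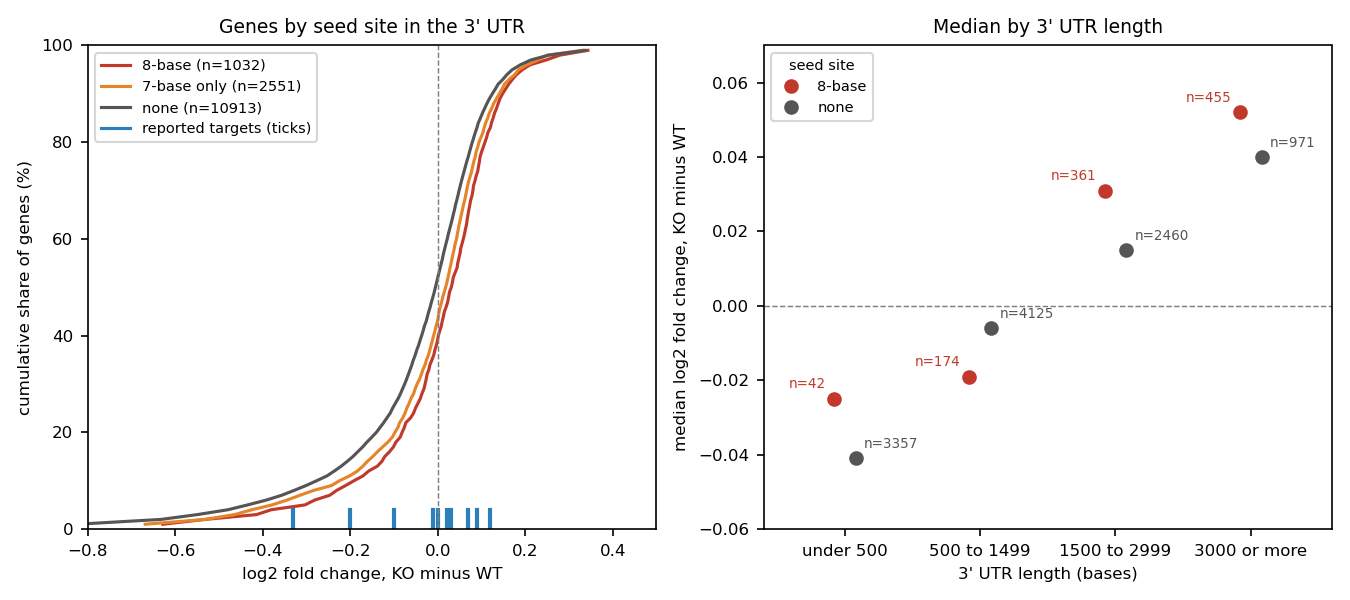
Left, cumulative share of tested genes (y axis, %) by log2 fold change (KO minus WT, x axis) for genes with an 8-base site (red), 7-base sites only (orange) or none (grey), with the 10 reported targets as blue ticks; right, median log2 fold change by 3′ UTR length class with an 8-base site (red) or none (grey). The curves lie close together, with medians of 0.031, 0.018 and -0.005, and both medians on the right are higher in the longer classes.

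The 5 genes with an 8-base site and the smallest p all had lower levels in KO, the direction of 279 of the 330 genes of the whole table with an unadjusted p under 0.05, and none was past the adjusted threshold. They were Crispld2, a secreted protein (-0.38 ± 0.13, unadjusted p = 0.00316), and Cd74, the MHC class II invariant chain (-0.60 ± 0.22, unadjusted p = 0.00719). Beside Cd74, the summed level of the microglia and macrophage markers was 100.4 to 223 CPM in WT and 86.5 to 109 CPM in KO, and its part was not tested. The others were the amino acid transporter Slc43a1 (-0.70, unadjusted p = 0.0174), the phosphatase Ptpn14 (-0.38, unadjusted p = 0.0211) and the endosomal protein Plekhf1 (-0.63, unadjusted p = 0.0223).

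For each target, the genes whose log2 CPM followed it most closely were taken from all genes tested, so that a high r is a result of the choice and is given as a description over the same 11 libraries. The profile of Ezr was closest to those of Cd44, the hyaluronan receptor to which ezrin binds (Pearson r = 0.987, Spearman coefficient 0.991), and Gpr160 (r = 0.983, Spearman coefficient 0.991). Snai2 was closest to Akr1b7 and Birc5 (r = 0.993 for both, Spearman coefficients 0.964 and 0.955). Tgfbr1 was closest to Srp72 (r = 0.985) and Slk (r = 0.979), and Tgfbr2 to Msrb3 (r = 0.979) and Nucb1 (r = 0.978). Meis1 was closest to Fstl5 (r = 0.963) and Arl13b (r = 0.954), and Meis2 to Gm17655 (r = 0.938) and Casd1 (r = 0.915). Rab22a was closest to Rhpn2 and Ppp1cb (r = 0.963 and 0.951), and Ap1s2 to Rpl12 and Rpp38 (r = 0.911 and 0.904). Bcl2 was closest to Sp6 and Sh2d1a (r = 0.936 and 0.880), and Creb5 to Slc35c1 and Aim2 (r = 0.905 and 0.904).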

How the data were processed

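RNA from 5 WT and 6 KO eye samples, biological replicates by the study's methods, was read as 100-nt pairs. The authors aligned the reads and assigned them to Gencode mouse genes with RSEM 1.2.19, and deposited expected counts, RSEM's estimates of the read pairs of each gene without scaling. They also deposited FPKM values, scaled by gene length and library size, which served here for levels and for alternative tests. The library kit was TruSeq RNA, and RSEM was run with its standard parameters, which do not use strand.

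Expected counts were rounded, and genes that reached 1 CPM in 5 or more libraries were kept. They were scaled with TMM factors and tested with edgeR 4.0.16 under R 4.3.3 (likelihood-ratio test, genotype as the only term, adjusted p under 0.1). The study's methods name the filter, edgeR's generalized linear model and the threshold, and the scaling and the form of the test were chosen here. At the lowest total of 20282241 read pairs the precision of genes near 1 CPM is low, and the common biological coefficient of variation was 26.1%. The CPM of each library use its TMM-scaled size, and a prior count of 2 was added for log2 CPM. Intervals are 95% Wald intervals of the log2 fold change between the groups, not of single libraries. Their standard error rests on edgeR's estimate of the variation between these libraries, which draws partly on other genes. Exact permutation tests are two-sided. Alternatives included DESeq2 1.42.0 and limma 3.58.1 on log2 FPKM with pseudocounts of 0.1 and 1, as well as fits with the library series, which was read from column names of the study's supplementary table, whose columns were matched to the libraries by their values.

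The genes named are the 10 targets, in each list the genes with an unadjusted p under 0.05 (at most 3) or the 1 with the smallest p, for each target the 2 genes with the highest Pearson r, the 5 genes with the smallest p among those with an 8-base site, Mir211, Mir204, their hosts and Xist. Targets and lists were chosen with earlier results of these data known. Of the lists, Atf7 was not matched to a gene of the files. Seed sites were read from the longest 3′ UTR of the basic protein-coding transcripts of Gencode M21 on GRCm38, in place of the RefSeq UTRs first planned. Gene symbols were matched to 95.43% of the identifiers. The study's own comparison results were not used for any value. The values of its supplementary table served only to match the libraries to the column names, and all results by series rest on that match.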

Additional observations from a re-analysis of the deposited data

Results flagged for a closer look

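In the KO group, Bcl2 in replicate 5 was at 13.4 CPM, far below the other 5 KO libraries relative to their spread, by Dixon's criterion for a single value. Chance meets this criterion in about 1 in 20 groups, and 20 groups (10 targets in 2 genotypes) were examined, so that 1 such value is about what chance gives. Without KO replicate 5 the log2 fold change of Bcl2 was 0.00305.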

How the results depend on the processing

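The count of targets called was 0 under all 26 other settings, and the lowest adjusted p of a target under any of them was 0.548 (Tgfbr2, library series as a covariate). Of 260 single fold changes under these settings, 221 kept their direction and 39 did not, none of them past the threshold. The settings within 1 series were chosen after seeing the data.

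The number of genes called in the whole table, 1 as reported, was 0 with the quasi-likelihood test and with either FPKM pseudocount, 2 with DESeq2 or with the filter of at least 1 count in any library, 10 with the series as a covariate, 4 among the libraries with Xist under 10 CPM, 38 within the age series and 7 within the mouse-number series. Leaving out 1 library gave 1 to 11 genes, the latter without KO replicate 1. The targets with a fold change above 0 numbered 3 of 10 with the series as a covariate, among the libraries with low Xist and within the age series, and 2 to 7 when 1 library was left out. The median of the targets was then -0.068 to 0.07.

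With the series as a covariate, the fold change was -0.09 for Ezr, -0.20 for Snai2 and -0.01 for Ap1s2. Among the libraries with low Xist it was -0.35 for Ezr, -0.07 for Tgfbr1 and -0.27 for Snai2. Within the age series it was -0.34 for Ezr, -0.11 for Tgfbr1 and -0.43 for Snai2. Within the mouse-number series it was 0.00154 for Rab22a, -0.09 for Ap1s2 and 0.13 for Bcl2. Rab22a was also at 0.00183 with upper-quartile scaling, at 0.04 without TMM factors and at 0.03 with FPKM at either pseudocount. When 1 library was left out, the range was -0.10 to 0.18 for Ezr, -0.02 to 0.13 for Tgfbr1, -0.22 to 0.31 for Snai2, -0.05 to 0.02 for Rab22a, -0.05 to 0.06 for Ap1s2, -0.16 to 0.00305 for Bcl2, -0.44 to -0.18 for Tgfbr2 and -0.33 to -0.02 for Creb5. The values of the last 2 nearest to 0 were those without WT replicate 1. The cause was not tested. Without TMM factors the median of the genes with an 8-base site was 0.077, against 0.031, and that of all genes 0.05, against 0.003.

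The deviations of same-numbered WT and KO libraries had a mean r of 0.223 over 5 pairs (from -0.332 to 0.633). Over the 25 pairs of different number the mean r was -0.045 (from -0.695 to 0.729). The pair of replicates 3, with the r of -0.332, joins libraries of different series. The check therefore cannot tell whether the numbers pair the animals. With the replicate number as a block, which leaves out KO replicate 6, 10 genes were called in the whole table and 0 of the targets, and 6 of 10 targets were above 0.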
